A study of Mus musculus with 6 samples.

Results

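Fragments of the transfer RNAs (tRNAs) for glycine, glutamate and valine were followed in small RNA from mouse bladder cells. They comprise every row of the deposited tRNA table named for these 3 amino acids, which is 72 of 381 rows (31 Gly, 21 Glu and 20 Val), and near-identical gene copies were summed into 9 of the table's 71 features, an anticodon sum or a mitochondrial tRNA each. The study compared CYP mice with Control mice, and 3 libraries of isolated urinary bladder cells were made per group. CYP mice received 4 intraperitoneal injections of cyclophosphamide at 80 mg/kg, on days 2, 4, 6 and 8, and were sampled 8 days after induction according to the labels. Cyclophosphamide is an alkylating agent, and acrolein formed from it in urine damages the bladder lining. Control mice received intraperitoneal saline. The labels put both groups at 8 weeks of age and name no strain or sex. Nothing in them ties each library to an animal of its own, so p-values here reflect the spread among these libraries, part of which may be technical. The isolated cells are a mixture, and in bulk RNA a smaller number of cells of a type and less RNA per cell cannot be told apart.

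Transfer RNAs carry amino acids to the ribosome and pair with the messenger RNA through an anticodon. They are made by RNA polymerase III with a 5′ leader and a 3′ trailer that ends in a run of T, are trimmed, and receive the bases CCA at the 3′ end before an amino acid is attached. Nucleases such as angiogenin cut mature tRNAs in the anticodon loop under stress and give long 5′ and 3′ fragments, and cuts in the T loop give shorter 3′ fragments that keep the CCA. Long 5′ fragments of Gly, Glu and Val tRNAs are among the most abundant tRNA fragments in many mammalian tissues and body fluids.

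The tRNA table gives counts per gene copy and not the part of the tRNA that was read, but a separate table of mapped sequences with no annotation holds 58 sequences at or within 10 bases of a Gly, Glu or Val tRNA gene, between 17 and 41 nt long. They show which ends were recovered among sequences left without annotation, not which ends the tRNA table counted. They held 33096 UMIs over the 6 libraries, against 417214 to 2008317 per library in the Gly, Glu and Val rows of the tRNA table. Some are printed 5′ to 3′ with the added CCA in capitals. The first 3 have the most UMIs (13687, 3441 and 4012). The Glu-CTC one, with 506 UMIs, is shown because it was higher in every CYP library, and the fifth is the fragment of a Val anticodon whose sum in the tRNA table was higher in CYP.
Val-CAC, 17 nt: accgggcggaaacaCCA
Val-CAC, 18 nt: aaccgggcggaaacaCCA
Glu-TTC, 22 nt: tcgactcccggtatgggaaCCA
Glu-CTC, 22 nt: tcgattcccggtcagggaaCCA
Val-TAC, 22 nt: tcgagccccagtggaaccaCCA
The sequences that start within 1 base of the 5′ end of a gene are shown because the counts of the Val-CAC ones ran the other way. The Gly-GCC one had 0, 6 and 0 UMIs in CYP libraries and 18, 0 and 10 in Control libraries. Its groups overlapped, and it was not tested. The 5′ end sequences carry no capitals.
Val-CAC, 30 nt: gtttcctagtgtagtggttatcacgttcgc
Val-CAC, 31 nt: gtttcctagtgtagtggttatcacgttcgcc
Gly-GCC, 31 nt: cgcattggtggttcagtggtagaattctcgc
The trailers lie past the gene and are removed from the precursor, and their capitals mark the closing run of T.
Val-CAC, 18 nt trailer: acacttgtcagtttcTTT
Gly-GCC, 25 nt trailer: ctctctcacttttaagtaattcTTT
The listed locus of the Val-CAC 3′ ends is the gene n-TVcac6 at chr1:171111443-171111515 of GRCm38, plus strand, and the 5′ ends are listed at n-TVcac3, chr17:59068708-59068780, plus strand. The Glu-TTC 22 nt sequence is listed at n-TEttc1, chr1:34434812-34434883, minus strand. Such short sequences can match several copies, so a listed locus may be 1 of several. The copies can also differ in anticodon. A 20 nt sequence listed at the Val-AAC gene n-TVaac3 has the same bases up to the CCA as the 18 nt Val-CAC one. The name of a printed sequence gives the anticodon of its listed gene only, and the 17 and 18 nt Val-CAC sequences may also come from Val-AAC genes. RefSeq places 70 Gly, Glu and Val genes among 430 tRNA genes of this assembly, and 14 of them (9 Gly, 4 Glu and 1 Val) stand in chr1:171037997-171111515.

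The tRNA table held between 596152 and 2212083 UMIs per library (unique molecular identifiers, tags that mark single molecules), and the miRNA table between 9110719 and 12180739. Control replicate 1 stood apart from the other 5 libraries. It held the 2212083 tRNA UMIs, against at most 994786 in any other library, and tRNA took 12.9% of its reads, against 3.93% to 6.89%. Its share of reads too short to use was 6.74%, against 11.4% to 15.6%, and its fragments of 18S ribosomal RNA came to 2663 per 1000000 miRNA UMIs, against 6913 to 14590. The fold changes that it moved most are therefore also given without it. Fragments of 18S RNA also differed between the groups, at 11520, 14590 and 10185 per 1000000 miRNA UMIs in CYP libraries and 2663, 6913 and 8471 in Control libraries. Among miRNAs chosen as markers of cell types, 4 of 5 erythroid ones were called lower in CYP, with a summed level of 1780 to 1919 CPM (UMIs per 1000000 of a table's total, here the miRNA table) in CYP and 2216 to 2615 CPM in Control. Over all 885 miRNAs tested, edgeR called 5.65% lower and 6.67% higher (12.3% in all). Of 2 lymphoid markers, 1 was called lower (539 to 573 CPM in CYP and 770 to 977 CPM in Control) and 1 of 6 epithelial markers higher (42941 to 46559 CPM in CYP and 38209 to 40536 CPM in Control). No marker was at 0, none of 4 smooth muscle markers was called, and the part of cell make-up or RNA quality in the tRNA values was not tested.

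Gly, Glu and Val fragments were the bulk of the tRNA table in both groups, and their share was lower in CYP. They took 75.3%, 77.2% and 70.0% of tRNA UMIs in CYP libraries and 90.8%, 84.7% and 79.6% in Control libraries. The groups did not overlap, and the means were 74.2% ± 3.75 in CYP and 85.1% ± 5.58 in Control (SD, n = 3 each). The exact two-sided permutation test over libraries gave p = 0.1, the smallest value that 3 against 3 allows. The Val share separated the groups in the same way, at 17.2%, 18.9% and 20.6% in CYP and 30.2%, 23.9% and 23.8% in Control (exact permutation p = 0.1). The Gly share was 35.3% ± 3.59 in CYP and 38.2% ± 2.63 in Control, and the Glu share was 20.0% ± 3.96 in CYP and 20.8% ± 0.684 in Control (SD, n = 3 each). Both overlapped between the groups, with exact permutation p = 0.3 for Gly and 0.8 for Glu.

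**Figure D1:**
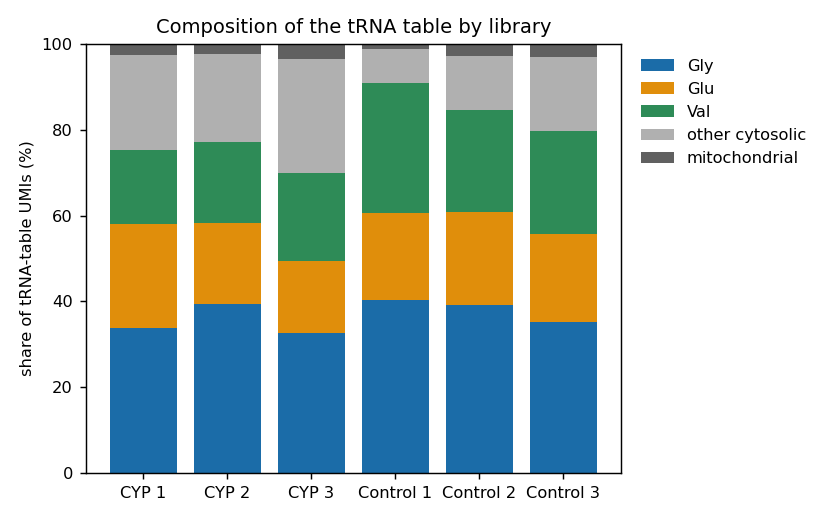
Stacked bars give the percent of each library's tRNA-table UMIs held by Gly, Glu, Val, other cytosolic and mitochondrial tRNAs, for the 3 CYP and then the 3 Control libraries. The 3 lower blocks together end between 70.0% and 77.2% in CYP and between 79.6% and 90.8% in Control.

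Set against miRNA in the same library, the fragments overlapped between the groups. Their summed level was 50599, 63508 and 44370 UMIs per 1000000 miRNA UMIs in CYP libraries and 182091, 92500 and 57132 in Control libraries. The ratio of the means, CYP over Control, was 0.478 with all libraries and 0.706 without Control replicate 1, and the exact permutation test on the log2 scale gave p = 0.2. Other cytosolic tRNAs had a ratio of 1.15 and mitochondrial tRNAs 0.783 on this scale, also with overlapping groups.

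The 9 anticodon sums spanned a wide range of abundance. Gly-GCC, Val-CAC and Glu-CTC ranked 1, 2 and 3 among all 71 features, with 35.9%, 22.3% and 18.03% of all tRNA UMIs. Glu-TTC, Val-AAC and Gly-CCC ranked 6, 7 and 8. Val-TAC ranked 18, Gly-TCC 27 and Gly-ACC 64, the last with 782 UMIs over the 6 libraries.

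edgeR's quasi-likelihood test, with trimmed-mean (TMM) scaling and Benjamini-Hochberg adjustment over all features, called 2 of the 9 sums, Gly-CCC and Val-AAC, both lower in CYP. Over all 70 features tested it called 12.9% lower and 1.43% higher (14.3% in either direction). The median log2 fold change was -1.17 over the 9 sums, 0.31 over the 39 other cytosolic sums, -0.34 over the 22 mitochondrial tRNAs and -0.06 over all 70. All 22 mitochondrial tRNAs were below 0 and 6 of them were called lower, which is 6 of the 9 features called lower. Without Control replicate 1 the median over the 9 sums was -0.60, with the same number of calls. With the replicate number as a block, an assumed pairing that the labels do not give, 5 of the 9 were called lower and none higher. Over all features this fit called 21.4% lower and 14.3% higher (35.7% in all). DESeq2 called 4 of the 9 lower and 1 higher, against 20% lower and 20% higher over all features (40% in all).

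Gly-CCC stood at 808, 1001 and 865 UMIs per 1000000 miRNA UMIs in CYP libraries and at 3967, 1989 and 1283 in Control libraries. Every CYP library was below every Control library. The log2 fold change was -1.74 ± 0.43 (SE; edgeR adjusted p = 0.00871), -1.06 ± 0.25 without Control replicate 1 (adjusted p = 0.000379) and -1.53 ± 0.31 with the replicate block (adjusted p = 6.6e-05). Val-AAC stood at 815, 1294 and 1146 in CYP libraries and at 3994, 2014 and 1429 in Control libraries, again without overlap. Its log2 fold change was -1.52 ± 0.43 (SE; edgeR adjusted p = 0.0162), -0.87 ± 0.26 without Control replicate 1 (adjusted p = 0.00633) and -1.32 ± 0.31 with the block (adjusted p = 0.000615). Both calls ended without any 1 of the CYP libraries or without Control replicate 2, with log2 fold changes between -1.83 and -1.63 for Gly-CCC and between -1.61 and -1.47 for Val-AAC. They also ended when libraries were scaled by their miRNA, at -1.59 for Gly-CCC (adjusted p = 0.0523) and -1.35 for Val-AAC (adjusted p = 0.0566). Scaling by tRNA library totals ended both calls and gave smaller values, -0.56 for Gly-CCC (adjusted p = 0.388) and -0.34 for Val-AAC (adjusted p = 0.542). With miRNA scaling and without Control replicate 1, Gly-CCC (log2 fold change -0.96, adjusted p = 0.000578) and Val-AAC (-0.75, adjusted p = 0.0125) were called by edgeR.

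Val-CAC, the second most abundant sum, held 10501, 13891 and 11592 UMIs per 1000000 miRNA UMIs in CYP libraries and 56534, 23876 and 15444 in Control libraries, without overlap. Its log2 fold change of -1.73 ± 0.65 did not pass (edgeR adjusted p = 0.0735), but the blocked fit called it at -1.45 ± 0.43 (adjusted p = 0.00543). Without Control replicate 1 it was -0.90 ± 0.44 (adjusted p = 0.106). Glu-TTC held 1763, 1946 and 1832 in CYP libraries and 4168, 2980 and 2076 in Control libraries, without overlap. Its log2 fold change was -1.01 ± 0.42 (edgeR adjusted p = 0.0768), called with the block at -0.93 ± 0.31 (adjusted p = 0.0131). Without Control replicate 1 the Glu-TTC value was -0.63 ± 0.30 (adjusted p = 0.0967), and library totals put it at 0.033. Without Control replicate 3, edgeR called both sums (adjusted p = 0.0256 each). With the block and miRNA library sizes together neither was called (adjusted p = 0.0726 for Val-CAC and 0.109 for Glu-TTC).

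The most abundant anticodons of Gly and Glu overlapped between the groups. Gly-GCC held 21721, 31187 and 19683 UMIs per 1000000 miRNA UMIs in CYP libraries and 76541, 40701 and 23863 in Control libraries. Its log2 fold change was -1.26 ± 0.68 (edgeR adjusted p = 0.161) and -1.07 ± 0.45 with the block (adjusted p = 0.0503), and -0.60 ± 0.50 without Control replicate 1 (adjusted p = 0.333). Glu-CTC held 14612, 13625 and 8731 in CYP libraries and 36569, 20595 and 12654 in Control libraries. In both sums Control replicate 1 was the highest library by far. The Glu-CTC log2 fold change was -1.17 ± 0.62 (edgeR adjusted p = 0.157), called with the block at -1.07 ± 0.41 (adjusted p = 0.0331). It was not called with the block and miRNA library sizes together (adjusted p = 0.183), and without Control replicate 1 it was -0.57 ± 0.44 (adjusted p = 0.288).

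The 3 least abundant sums had fold changes near or above 0. Val-TAC held 233, 351 and 321 UMIs per 1000000 miRNA UMIs in CYP libraries and 130, 202 and 232 in Control libraries, with every CYP library just above every Control library. Its log2 fold change of 0.43 ± 0.23 was not called (edgeR adjusted p = 0.157), while DESeq2 called it at 0.42 ± 0.17 (adjusted p = 0.0372). Gly-TCC held 137, 195 and 178 in CYP libraries and 181, 135 and 138 in Control libraries. Gly-ACC held 8.38, 15.5 and 20.7 in CYP libraries and 8.16, 9.22 and 12.8 in Control libraries. Both overlapped, and their log2 fold changes were -0.11 ± 0.19 for Gly-TCC (edgeR adjusted p = 0.623) and 0.26 ± 0.22 for Gly-ACC (adjusted p = 0.374). The Gly-TCC value changed sign with the scaling, at 0.033 with miRNA library sizes. Separation per 1000000 miRNA UMIs was not confined to these families, and its share over all features was not counted. Leu-CAG (427, 464 and 529 in CYP libraries, 188, 265 and 331 in Control libraries) and Pro-AGG (164, 186 and 215 against 107, 125 and 118) lay higher in CYP. So did many other cytosolic sums, among them Leu-AAG, Asn-GTT, Pro-TGG, Thr-TGT, Ala-TGC and Lys-TTT. The position of Val-TAC was thus common among cytosolic sums. The initiator tRNA iMet-CAT (314, 493 and 432 against 1106, 819 and 548) and the mitochondrial mt-Th (67.0, 80.9 and 83.7 against 111, 118 and 142) lay lower. The mitochondrial mt-Tm (137, 179 and 192 against 286, 276 and 198) lay lower as well.

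**Figure D2:**
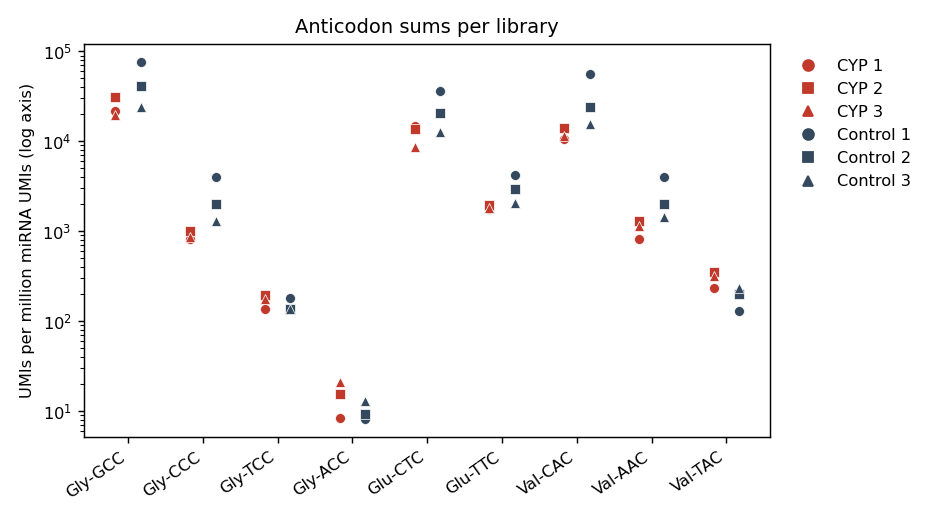
Points give UMIs per 1000000 miRNA UMIs (log axis) of each anticodon sum in each library, CYP in red to the left and Control in dark blue to the right, with a marker shape per replicate number. Gly-CCC, Glu-TTC, Val-CAC and Val-AAC show no overlap and lie lower in CYP, and Val-TAC lies higher in CYP. Many other cytosolic sums, not shown, also lay higher in CYP without overlap on this scale, and a few features lay lower.

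**Figure D3:**
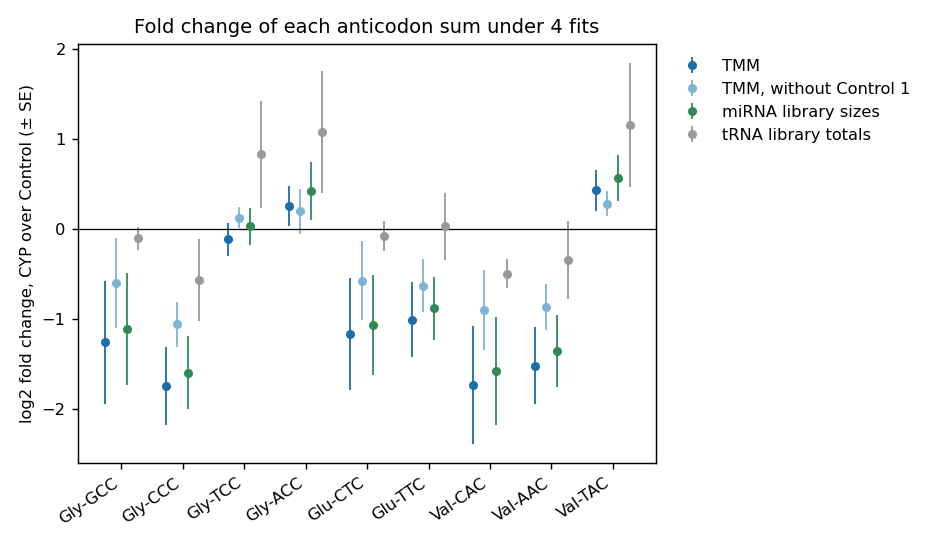
Points give the edgeR log2 fold change of each sum, CYP over Control, and bars the standard error, under TMM scaling, TMM without Control replicate 1, miRNA library sizes and tRNA library totals. The negative values are smaller in size without Control replicate 1 (Gly-CCC -1.06 against -1.74), and library totals shift the values upward, by a median of 0.83 over all features.

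Ratios between anticodons within a library do not depend on the scaling. Of 8 ratios compared, 3 separated the groups, each with an exact permutation p of 0.1 (0.267 after Benjamini-Hochberg adjustment over the 8). The log2 ratio of Gly-CCC to Gly-GCC was -4.75, -4.96 and -4.51 in CYP libraries and -4.27, -4.36 and -4.22 in Control libraries, lower in all 3 CYP libraries. The ratio of Gly-TCC to Gly-GCC was higher in CYP, at -7.30, -7.32 and -6.79 in CYP libraries and -8.73, -8.24 and -7.44 in Control libraries. The ratio of Val-TAC to Val-AAC showed the widest gap. It was -1.81, -1.88 and -1.84 in CYP libraries, nearly the same value each time, and -4.94, -3.32 and -2.62 in Control libraries, which were far apart. The difference between the group means was 1.79, and 1.13 without Control replicate 1. The other 5 ratios overlapped, with exact permutation p between 0.2 and 0.9, among them Val-CAC to Val-AAC and Glu-TTC to Glu-CTC. A p of this size does not show that these pairs changed alike.

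The copies of an anticodon can be near-identical, and copies whose names share the transcript number have the same mature sequence by the naming convention of tRNA genes. Yet counts within such sets were uneven. The 8 copies of Gly-GCC-2 held between 9037 and 1340230 UMIs, and the 5 copies of Val-CAC-2 between 16905 and 940002. The rule by which reads were split between copies is not stated, so values of a single copy are uncertain. edgeR called 0 of the 72 rows and 0 of all 369 rows tested (0% in background), with 38 of the 72 and 81 of all rows at an unadjusted p below 0.05. DESeq2 called 38 of the 72 rows, all lower in CYP, and 72 of all rows (16.3% lower and 3.25% higher, 19.5% in all). Of the 72 rows, 59 had a log2 fold change below 0, with a median of -1.09, against 155 of 369 and a median of 0.12 over all rows. The median over the 72 was -0.44 without Control replicate 1, and 0.074 with library totals, where 33 of them were below 0. Rows of an anticodon come from the same libraries and near-identical sequences, so they are not independent and their agreement adds no support to the sums. With TMM scaling the direction of the log2 fold change mostly followed the anticodon. It was below 0 in 7 of 7 Gly-CCC rows, 14 of 15 Gly-GCC rows, 8 of 8 Glu-TTC rows, 11 of 13 Glu-CTC rows, 7 of 7 Val-AAC rows and 9 of 10 Val-CAC rows, and in 3 of 8 Gly-TCC rows and 0 of 3 Val-TAC rows.

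Some copies took a different share of their anticodon in CYP, and these shares are given without a test. Copies of other amino acids were not compared in this way, so such shifts are not shown to be particular to these families. Shares within an anticodon have a fixed total, so a lower share of a copy means higher shares of others. Copies of the same mature sequence are split by the unstated rule. Val-AAC-1-1 held 30.04%, 36.8% and 34.7% of Val-AAC UMIs in CYP libraries and 53.8%, 52.0% and 48.9% in Control libraries. Val-AAC-5-1 moved the other way, with 33.0% ± 2.53 in CYP and 25.5% ± 1.63 in Control (SD, n = 3 each). Glu-CTC-1-6 held 22.7% ± 2.27 of Glu-CTC in CYP and 31.8% ± 3.42 in Control, and Glu-CTC-1-8, a copy of the same mature sequence by its name, 60.8% ± 5.30 in CYP and 52.9% ± 2.01 in Control (SD, n = 3 each). The groups did not overlap in any of these. Gly-GCC-1-1 held 18.8%, 16.4% and 14.6% in CYP libraries and 7.63%, 11.8% and 10.6% in Control libraries, also without overlap, while Gly-GCC-2-4, the largest Gly-GCC row, held 60.3% ± 0.665 in CYP and 60.3% ± 4.08 in Control (SD, n = 3 each). In Gly-CCC the shares of Gly-CCC-1-2 (28.7% in CYP and 16.9% in Control on average) and Gly-CCC-1-1 (15.8% in CYP and 10.6% in Control) were higher in CYP. Lower in CYP without overlap were Gly-TCC-1-2 (11.4% in CYP and 18.1% in Control on average), Gly-TCC-1-5 (13.9% and 15.8%) and Val-TAC-1-2 (16.0% and 17.2%). Val-CAC-2-3 and Val-CAC-2-1 overlapped, and Control replicate 1 differed from all other libraries in both, with 57.9% in Val-CAC-2-3, against 69.4% to 77.5%.

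**Figure D4:**
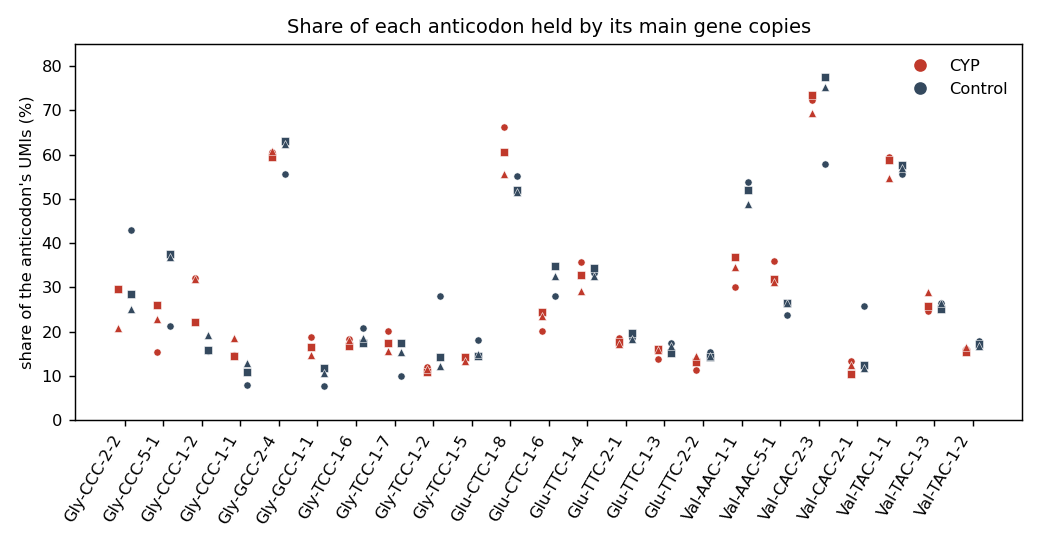
Points give the percent of an anticodon's UMIs held by each of its main gene copies, CYP in red to the left and Control in dark blue to the right, with circles, squares and triangles for replicates 1, 2 and 3. Val-AAC-1-1 and Glu-CTC-1-6 lie lower in CYP and Glu-CTC-1-8, Val-AAC-5-1 and Gly-GCC-1-1 higher.

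The sequences at these genes in the table with no annotation were nearly all 3′ ends, and their balance between the groups differed from that of the tRNA table. This table holds what annotation left over, so its mix of ends need not match that of the fragments in the tRNA table. It lists only sequences that reach 10 UMIs in some library, and 44 of the 58 carried the CCA that is added after transcription. Those 44 held 93.3% of the 33096 UMIs. Val genes held 70.9% of the UMIs, Glu genes 23.0% and Gly genes 6.08%, an order unlike that of the tRNA table, where Gly led. Lengths differed by family. Fragments of 17 to 18 nt up to the CCA held 89.0% of the Val 3′ end UMIs, those of 22 to 24 nt held 65.8% of the Glu ones, and those of 31 to 41 nt held 51.6% of the Gly ones. In 6 of the 44, all at Val genes and with 2526 UMIs, further bases followed the CCA.

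The 17 nt fragment printed above is listed at a Val-CAC gene and may also come from Val-AAC genes. It had 2952, 2862 and 2171 UMIs in CYP libraries and 1754, 1688 and 2260 in Control libraries. The groups overlapped through Control replicate 3, and the log2 fold change was 0.32 ± 0.16 (edgeR adjusted p = 0.482). The 22 nt Glu-CTC fragment had 102, 90 and 176 UMIs in CYP libraries and 35, 45 and 58 in Control libraries, higher in all 3 CYP libraries. Its log2 fold change of 1.27 ± 0.31 was not called (edgeR adjusted p = 0.113). The 22 nt Glu-TTC fragment, with 0.12 ± 0.21 (adjusted p = 0.872), and the 22 nt Val-TAC fragment, with 0.23 ± 0.30 (adjusted p = 0.812), overlapped between the groups. The 30 nt Val-CAC 5′ end had 0, 17 and 13 UMIs in CYP libraries and 71, 37 and 40 in Control libraries, lower in every CYP library. The 31 nt one had 15, 17 and 17 in CYP libraries and 64, 24 and 19 in Control libraries. Neither was called, at log2 fold changes of -2.47 ± 0.70 (edgeR adjusted p = 0.161) and -1.33 ± 0.51 (adjusted p = 0.297). The 18 nt Val-CAC trailer, at 0.08 ± 0.20 (adjusted p = 0.924), and the 25 nt Gly-GCC trailer, at 0.37 ± 0.32 (adjusted p = 0.698), overlapped.

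edgeR called 0 of the 55 sequences tested, with 6 at an unadjusted p below 0.05, while it called 1.38% of all 942 sequences of that table (0.849% lower and 0.531% higher). No other tool was run on this table. In simulated counts of it, edgeR recovered 16.7% of changes of 2 fold, so the lack of calls does not show that these sequences were unchanged. The median log2 fold change of the 55 was 0.31, with 13 below 0, against 0.08 and 419 below 0 over all 942. Summed per class, 3′ ends with CCA came to 534, 607 and 566 UMIs per 1000000 miRNA UMIs in CYP libraries and 352, 430 and 438 in Control libraries, higher in every CYP library. The 5′ ends, only 3 sequences with 368 UMIs, came to 1.31, 3.86 and 3.19 in CYP libraries and 13.9, 6.70 and 5.66 in Control libraries, lower in every CYP library. These sums were chosen after the sequences had been seen and are given without a test. The same directions without overlap were seen at the other cytosolic tRNA genes, where 3′ ends with CCA came to 268, 250 and 276 in CYP and 211, 196 and 210 in Control, and 5′ ends to 6.64, 6.27 and 5.32 in CYP and 11.3, 13.0 and 10.7 in Control. Both directions were thus shared with cytosolic tRNA genes of other amino acids. At mitochondrial tRNA genes the 3′ ends with CCA overlapped between the groups, at 110, 166 and 158 in CYP and 94.1, 172 and 169 in Control.

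**Figure D5:**
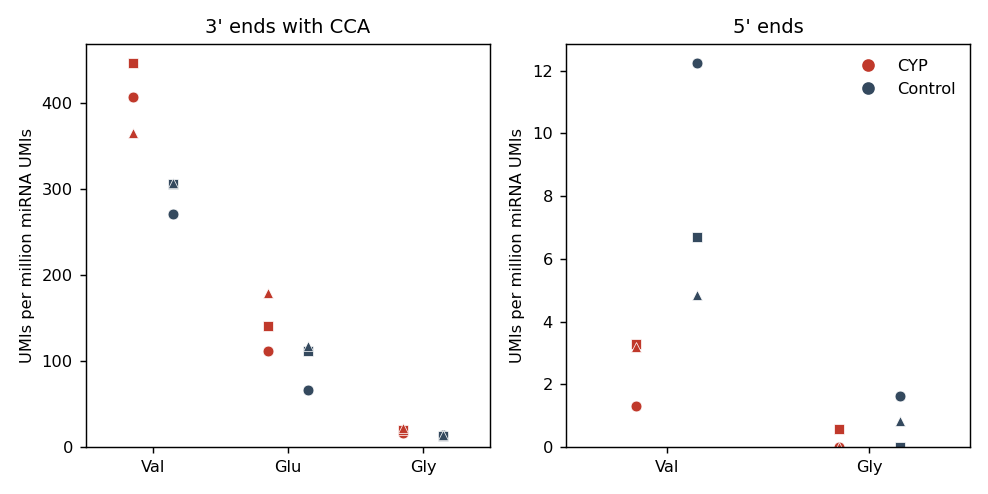
Points give UMIs per 1000000 miRNA UMIs of sequences with no annotation at Val, Glu and Gly genes. The left panel holds those that carry the 3′ CCA, with or without further bases, and the right panel those that start at the 5′ end (no Glu sequence). CYP is in red to the left and Control in dark blue to the right. Summed over the families, 3′ ends lie between 534 and 607 in CYP and between 352 and 438 in Control, and 5′ ends between 1.31 and 3.86 in CYP and between 5.66 and 13.9 in Control.

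Pairs of sequences that differ at 1 base are shown because Gly-GCC and Glu-CTC carry the same kind of change at the same place in the T loop. The base there is an adenosine that is methylated in many tRNAs. Capitals mark the base that differs.
Gly-GCC, A form: gttcgAttcccggccaatgcacca
Gly-GCC, T form: gttcgTttcccggccaatgcacca
Glu-CTC, A form: cgggttcgAttcccggtcagggaacca
Glu-CTC, T form: cgggttcgTttcccggtcagggaacca
The change is A6T in the Gly-GCC pair and A9T in the Glu-CTC pair, counted from 1 at the 5′ end of the sequence, and lies 19 bases from the 3′ end in both. The T form held 51.1% of the Gly-GCC pair in CYP (95% exact binomial interval 44.4% to 57.7%, over summed libraries) and 50.4% in Control (41.2% to 59.5%). In the Glu-CTC pair it held 10.2% in CYP (7.22% to 13.8%) and 11.02% in Control (7.45% to 15.5%). The intervals, which cover counting error only, overlapped between the groups in each pair. These shares cover only sequences left without annotation, so the share of T among all fragments was not measured. Longer sequences of these 2 anticodons across this base were listed in the T form only, at 33, 38, 39 and 40 nt for Gly-GCC and 32 to 40 nt for Glu-CTC. The T form was not general to long sequences. Those of Glu-TTC at 30, 32 and 33 nt (122, 374 and 182 UMIs) and of Gly-CCC at 39 to 41 nt were listed in the A form only. The 23 nt Gly-GCC sequence and the Glu-CTC ones of 22, 26 and 28 nt were listed in the A form only. Whether annotation took up either form more often was not tested. The Gly-GCC pair is 24 nt long and the Glu-CTC pair 27 nt. The 17 nt Val-CAC fragments start downstream of this position and cannot show it.

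Other RNAs were compared through lists of RNAs with known relations to these fragments. Of 4 other tRNAs known to give abundant long 5′ fragments, His-GTG, Lys-CTT, Lys-TTT and Asp-GTC, none was called by edgeR, with log2 fold changes of -0.22, -0.18, 0.35 and -0.70 (adjusted p between 0.227 and 0.737). Of 7 other RNAs made by RNA polymerase III, 6 were found in the table of other RNAs, the Y RNAs Rny1 and Rny3, the vault RNA Vaultrc5, 7SK (Rn7sk) and 7SL (Rn7s1 and Rn7s2), and none was called. Their log2 fold changes lay between -0.37 for Rny3 and 0.46 for Rn7sk, in a table where edgeR called 0 of 679 features (0%), with 84 at an unadjusted p below 0.05; DESeq2 was not run on it. The pattern across libraries most like that of the summed Gly, Glu and Val fragments was that of the initiator tRNA iMet-CAT, with Pearson's r = 0.01 for log2 CPM over 6 libraries, followed by the mitochondrial mt-Th (-0.56) and mt-Tn (-0.66). In CPM of the tRNA table the summed fragments take most of each total, so other tRNAs must fall where these rise. Per 1000000 miRNA UMIs, where both share the denominator, iMet-CAT had r = 0.92, Asp-GTC 0.87 and mt-Tm 0.81 over the same libraries, and mt-Tn 0.10. Control replicate 1 was the highest library for iMet-CAT, Asp-GTC, mt-Tm and the summed fragments, and no r without it was computed. Asp-GTC stood at 5294 in that library and at 2050 to 2572 in all others. edgeR called iMet-CAT lower in CYP (log2 fold change -1.30 ± 0.31, adjusted p = 0.00871).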

How the data were processed

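A Qiagen miRNA kit turned 100 ng of RNA per sample into a library, per the labels' protocols. The authors deposited whole-number counts of UMIs and of reads per feature, not normalized, per the file headers. The build was mm10 and the tools named were STAR 2.6, FastQC 0.11.7, DESeq2 and Trim Galore, per the submitters' processing notes. No counting tool is named in the sources used here. Deposited tables of fold changes between groups were not used here.

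UMI counts were summed per anticodon and tested by the robust quasi-likelihood method of edgeR 4.0.16 (R 4.3.3) with TMM scaling on the tRNA table, edgeR's default filter (minimum count 10, minimum total 15) and Benjamini-Hochberg adjustment over all features tested. An adjusted p below 0.05 was a call. The SE of an edgeR value was derived from the quasi-likelihood F statistic, as the absolute log2 fold change over the square root of F. That of DESeq2 is its own estimate, so the SEs of the tools are not the same statistic. Rows, other RNAs and sequences with no annotation were tested in the same way, each in its own table. The edgeR test was checked on simulated counts. It recovered 100% of the few changes put into anticodon sums and called 3.57% of the unchanged sums. In rows it recovered 12.5%, 75% and 86.7% of changes of 1.5, 2 and 4 fold. In sequences with no annotation these were 11.5%, 16.7% and 64.9%. Shares and ratios were tested by exact two-sided permutation over libraries. Alternatives were DESeq2 1.42.0, other scalings and filters, read counts, a replicate block and each library left out. Same-numbered libraries deviated together from their group means (r = 0.458, 0.175 and 0.506 over 70 features). The numbers were taken as pairs on this ground, and the blocked values stand beside the results they change. The labels do not say that the numbers mark pairs, and libraries of different numbers were not compared in this way. The pairing was thus read from the same data and is an assumption behind every blocked value. Libraries of a group differed beyond counting noise, so none was counted as a duplicate.

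Sequences with no annotation were matched by their deposited positions, which count from 0 (120 of 122 CCA-ended sequences at tRNA genes then end exactly 3 bases past the gene), to RefSeq tRNA genes of GRCm38.p6. None of 188 piRNA rows overlapped such a gene. The analysis of these sequences, the fits that combine miRNA library sizes with another change, and the likeness per 1000000 miRNA UMIs were added after seeing the data. The members and all lists were chosen with earlier results of these data known. Every Gly, Glu and Val sum is named. Copies are named that held the most UMIs or at least 10% of their anticodon, at most 4 per anticodon, and single sequences were chosen after their values were seen.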

Additional observations from a re-analysis of the deposited data

How the results depend on the processing

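The lower share of Gly, Glu and Val fragments in CYP, and the lower Val share, kept their direction under every alternative run, as did the log2 fold changes of Gly-CCC, Gly-GCC, Val-AAC, Val-CAC and Glu-CTC (below 0) and of Val-TAC and Gly-ACC (above 0). Without 1 library at a time, the difference in the summed share, CYP minus Control, lay between -13.6 and -8.01 percentage points. Relative to TMM, the median fold change of all features shifted on the log2 scale by 0.83 with library totals, 0.14 with miRNA library sizes and -0.25 with upper-quartile factors. Counts of calls moved most. Against 10 of 70 features and 2 of the 9 sums, library totals gave 0 and 0, miRNA library sizes 1 and 0, DESeq2 28 and 5, the replicate block 25 and 5, the block with miRNA library sizes 31 and 3, and miRNA library sizes without Control replicate 1 gave 5 and 2. Leaving out 1 library gave 1 to 18 features and 0 to 4 sums. Over these alternatives the adjusted p of Gly-CCC ran between 6.6e-05 and 0.388 and that of Val-AAC between 0.000615 and 0.542. Against 0 rows called, DESeq2 called 72 rows, 38 of them Gly, Glu or Val, and leaving out 1 library gave 0 to 64 rows, 0 to 37 of them Gly, Glu or Val (64 and 37 without Control replicate 3, 45 and 22 without Control replicate 1). MiRNA library sizes without Control replicate 1 gave 16 rows and 7. The replicate block changed no call of a row.

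Some signs turned, and the cause was not tested. The log2 fold change of Glu-TTC, -1.01 with TMM, was 0.033 with library totals. That of Gly-TCC was 0.83 with library totals, 0.033 with miRNA library sizes, 0.043 with the block and miRNA library sizes, 0.23 with miRNA library sizes and without Control replicate 1, and between -0.18 and 0.13 without 1 library at a time (0.13 without Control replicate 1). With only the most abundant copy of each anticodon, the difference in Glu share was 1.05 percentage points, that in the log2 ratio of Glu-TTC to Glu-CTC -0.10 and that of Val-CAC to Val-AAC 0.53. Without 1 library at a time, the difference in Glu share ran between -3.02 and 0.84 percentage points, that in the log2 ratio of Gly to Glu between -0.15 and 0.14 and that of Glu-TTC to Glu-CTC between -0.086 and 0.31. With 3 libraries a group no exact test could go below 0.1, and copies with the same mature sequence limit what single rows show.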
